A study of Homo sapiens with 25 samples.

Results

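Enhancers can carry H3K4me1, the single methylation of lysine 4 on histone H3, without the marks of an active element, and such regions are commonly called primed. In the human cell line NB4, which was established from an acute promyelocytic leukemia, 18944 of the 57630 H3K4me1 peaks called in solvent-treated (DMSO) cells were of this kind. They shared no base with an H3K4me2, H3K4me3, H3K27ac or LSD1 peak of DMSO-treated cells, and none with a GFI1 peak of untreated cells. They made up 32.9% of the H3K4me1 list and covered 38.4 Mb of its 203 Mb. The name stands here for that set of peak calls, since neither accessibility nor expression was measured.

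H3K4me1 is written mainly by the methyltransferases KMT2C and KMT2D at enhancers. Acetylation of lysine 27 (H3K27ac) by CBP and p300 accompanies activity, H3K4me2 lies at enhancers and promoters, and H3K4me3 lies mainly at promoters. LSD1 (KDM1A) removes methyl groups from mono- and dimethylated lysine 4, and the repressor GFI1 recruits it to chromatin in myeloid cells. In acute promyelocytic leukemia the fusion protein PML-RARA holds retinoic acid target genes in a repressed state, and retinoic acid (RA) relieves this and lets the cells mature.

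The cells were treated for 24 h with DMSO, with the LSD1 inhibitor MC_2580, with retinoic acid at 0.01 µM (low-dose RA below) or 1 µM (high-dose RA), or with MC_2580 and low-dose RA together (the combination). The 4 histone marks were profiled by chromatin immunoprecipitation and sequencing in all 5 conditions, LSD1 in DMSO and MC_2580, and GFI1 in cells without treatment. Every antibody and condition had 1 library of this 1 line, so there are no replicates to measure a spread from and no p-values, and the 95% intervals below cover counting error only. The sample title of the H3K4me3 library of the combination names the 1 µM dose and its treatment field the 0.01 µM dose. The treatment field was followed, and all H3K4me3 values of the combination carry that doubt. The dose of MC_2580 was not stated in the labels.

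The 23 peak lists held 12562 to 72810 peaks. The treated lists of H3K4me1 ran from 54181 (MC_2580) to 72810 peaks (combination) and those of H3K27ac from 24552 (MC_2580) to 55793 (low-dose RA). The lists hold no read numbers, so depth is unknown, and whether longer lists come from deeper libraries was not tested. Each peak has a score from the authors, which lies on the scale of -10 × log10(p) of the peak caller and starts at 50 in the histone lists. Scores were used to rank or filter peaks within 1 list.

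The primed regions were short and weakly called beside the rest of the H3K4me1 list. Their median width was 1783 bases (quartiles 1397 and 2348) against 3191 bases in the other 38686 peaks. The median score was 110.02 (quartiles 71.55 and 199.82) against 494.99. No primed region reached the score of 3100 at which strong peaks pile up, which 1119 of the other peaks did. Width and score rose together over the primed regions (Spearman rho 0.724 across 18944 peaks of 1 library, a description without a test). Members were chosen on the same library, so these values are a description of what the rule selects.

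Of the H3K4me1 peaks that failed the rule, 36102 carried at least 1 of the 3 other histone marks, and a further 2584 carried LSD1 or GFI1 alone. H3K27ac was the most frequent companion, on 51.2% of all H3K4me1 peaks, followed by H3K4me2 on 48.5% and H3K4me3 on 37.8%. LSD1 lay on 20.3% and GFI1 on 22.6%. Peaks on both sides of the rule's edge were alike in size. The 140 primed regions with under 100 bases to the nearest excluded peak had a median width of 1737 bases and a median score of 99.03. The 144 peaks that failed by under 100 bases of overlap had 1814.5 bases and 103.81.

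The distance from primed regions to marked chromatin was measured to each list apart. The median gap was 14.9 kb to the nearest H3K27ac peak of DMSO, 16.4 kb to H3K4me2, 21.75 kb to H3K4me3, 29.65 kb to GFI1 and 46.2 kb to LSD1. The lower quartile was 4.99 kb for H3K27ac and 6.31 kb for H3K4me2. Only 5.33% lay within 1 kb of an H3K27ac peak, 1.63% within 1 kb of H3K4me2 and 0.702% within 1 kb of LSD1. The next H3K4me1 peak was nearer, at a median of 5297 bases, against 1894 bases for the other H3K4me1 peaks.

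In each treatment a region gained a mark when it shared at least 1 base with a treated peak of that mark, and it lost H3K4me1 when it shared none with a treated H3K4me1 peak. The regions lack the 3 marks in DMSO by choice, so they could only gain them, and the shares below describe the set rather than a net change. The background printed beside each count is the same share over all H3K4me1 peaks of DMSO that lacked the mark there, or for losses over the whole H3K4me1 list. The 4 treatments share the DMSO libraries.

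H3K27ac was the mark most often gained in the 3 conditions with RA and the least often gained with MC_2580 alone. With high-dose RA, 3796 primed regions (20.04%, 19.5 to 20.6%) carried an H3K27ac peak, with a background of 22.7%. The combination had 3836 (20.2%, 19.7 to 20.8%, background 25.6%) and low-dose RA had 3948 (20.8%, 20.3 to 21.4%, background 26.8%). With MC_2580, 609 did (3.21%, 2.97 to 3.48%, background 5.23%). The 3 conditions with RA were thus within 1 percentage point of each other: the combination differed from high-dose RA by 0.211 percentage points, with an interval of -0.329 to 0.752. High-dose RA exceeded MC_2580 by 16.8 points (16.2 to 17.4). With the treated lists held to the best 24552 peaks, the counts were 1943 with high-dose RA, 1851 in the combination, 1513 with low-dose RA and 609 with MC_2580, so the order among the conditions with RA turned while MC_2580 stayed lowest.

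H3K4me2 was gained less often and ranked the treatments otherwise. The combination had 1359 primed regions with an H3K4me2 peak (7.17%, background 12.6%), high-dose RA had 1135 (5.99%, background 9.24%) and MC_2580 had 1124 (5.93%, background 12.7%). Low-dose RA had the fewest, 714 (3.77%, background 6.33%). High-dose RA differed from MC_2580 by less than the counting error, at 0.0581 percentage points (-0.338 to 0.455). With the 4 treated lists held to their best 39302 peaks, MC_2580 fell to 383 regions (2.02%), below low-dose RA (714), high-dose RA (784) and the combination (876). With a minimum score of 100 in the treated lists, it kept its place between the RA doses, with 291 regions against 204 with low-dose RA, 504 with high-dose RA and 556 in the combination.

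H3K4me3 was gained by 3.71 to 5.06% of the regions. Low-dose RA had 958 (5.06%, background 10.8%), MC_2580 had 761 (4.02%, background 12.8%), the combination 731 (3.86%, background 10.4%) and high-dose RA 703 (3.71%, background 8.4%). The low RA dose exceeded the high dose by 1.35 percentage points (1.09 to 1.60). Among the other 3 libraries the differences were at most 0.306 points. With the treated lists held to the best 26271 peaks, low-dose RA had 847 (4.47%), high-dose RA 703, the combination 674 and MC_2580 549 (2.90%), so that MC_2580 went from the second place to the last.

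Loss of H3K4me1 was more frequent than the gain of any mark in the treatments other than the combination. With low-dose RA, 6988 primed regions (36.9%, 36.2 to 37.6%) had no H3K4me1 peak left, with a background of 19.5%. MC_2580 lost 5720 (30.2%, background 13.1%) and high-dose RA 5717 (30.2%, background 14%). The combination lost 3470 (18.3%, 17.8 to 18.9%, background 7.79%), the lowest number and also the treatment with the longest H3K4me1 list. This order depended on list length: with the 4 treated lists held to the best 54181 peaks, MC_2580 lost 30.2%, the combination 39.1%, high-dose RA 42.7% and low-dose RA 44.3%. The combination then no longer had the lowest loss.

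**Figure D1:**
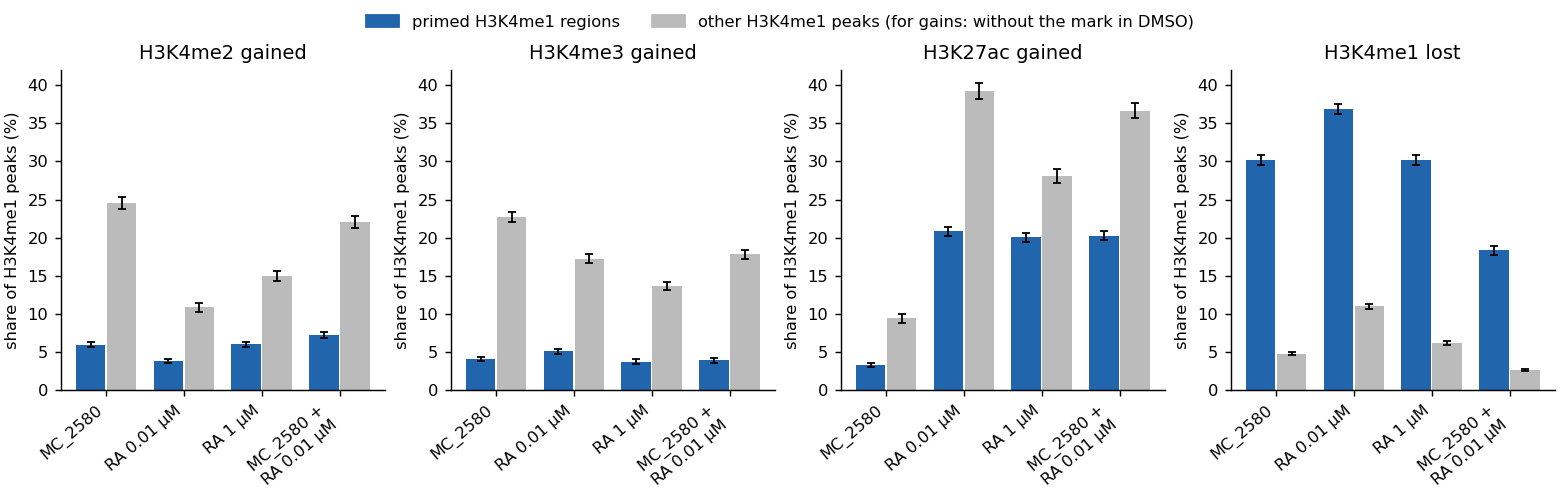
Share of primed H3K4me1 regions (blue) and of the other H3K4me1 peaks of DMSO (grey) with each outcome in each treatment, in percent on a common axis from 0, with 95% exact binomial intervals of the counting error. Primed regions gained each mark less often than the other peaks and lost H3K4me1 more often, and with MC_2580 only 3.21% of them gained H3K27ac, against 20.04 to 20.8% in the conditions with RA.

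Each of the 3 marks was gained less often at primed regions than at other H3K4me1 peaks that lacked the same mark in DMSO, in every treatment. With MC_2580, 22.7% of 16900 other peaks gained H3K4me3, a difference of primed minus other of -18.6 percentage points (-19.3 to -17.95), and the difference in H3K4me2 was as large, at -18.6 points (-19.5 to -17.75). The smallest was H3K27ac with MC_2580, at -6.18 points (-6.82 to -5.53). Loss of H3K4me1 ran the other way, with 4.74% of the other peaks lost with MC_2580 and 2.64% in the combination. The primed regions exceeded them by 25.5 points (24.8 to 26.1) and 15.7 points (15.1 to 16.25).

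These gaps shrank when peaks were compared within the 16 classes formed by the width and score quartiles, weighted to the primed regions. The quartiles were cut over the primed regions, so the class highest in both has no upper limit. For the losses it held 3199 primed regions and 25224 other peaks, which can still differ in width and score. For H3K27ac with high-dose RA, 22.04% of the other peaks gained the mark on this weighting, and the difference of primed minus other was -2.00 points (-3.13 to -0.877). With low-dose RA it was -15.3 points (-16.6 to -13.9) and in the combination -9.03 (-10.25 to -7.81). For H3K4me2 with MC_2580 it was -10.3 points (-11.2 to -9.48). The excess loss of H3K4me1 fell to 1.35 points (0.359 to 2.35) with low-dose RA, and remained at 11.3 (10.4 to 12.2) with MC_2580, 8.06 (7.11 to 9.01) with high-dose RA and 7.96 (7.18 to 8.74) in the combination. The other peaks differ from the primed ones by another mark or factor, as the rule demands, so that both sets were chosen by DMSO calls.

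LSD1 itself was seldom called at primed regions under its inhibitor. In the MC_2580 list, 382 of the 18944 (2.02%, 1.82 to 2.23%) overlapped an LSD1 peak, with a background of 18% over H3K4me1 peaks without LSD1 in DMSO. The share rose with the H3K4me1 score, from 0.9504% in the lowest quartile to 3.76% in the highest. At the same scores it rose in the other H3K4me1 peaks without LSD1 in DMSO too, from 8.66% of 1801 to 36.6% of 18646. The LSD1 lists start at scores of 234.04 (DMSO) and 357.00 (MC_2580), so weaker LSD1 peaks are missing from both.

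The outcomes differed by H3K4me1 score, among the primed regions as among the other H3K4me1 peaks. The quartiles ran from 50.01 to 71.54, from 71.55 to 110.01, from 110.02 to 199.81 and from 199.85 to 2832.69. From the lowest to the highest, the share that lost H3K4me1 with MC_2580 fell from 62.4% over 40.6% and 16.5% to 1.39%. High-dose RA had 56.6%, 41.4%, 19.9% and 2.85%. Low-dose RA had 64.5%, 48.8%, 28.5% and 5.74%, and the combination 40.3%, 24.0%, 8.21% and 0.802%. The other H3K4me1 peaks, divided at the same scores, fell from 43.7% of 1922 to 0.122% of 29412 with MC_2580 and from 64.2% to 1.81% with low-dose RA. High-dose RA went from 44.8% to 0.405% and the combination from 24.7% to 0.116% in these peaks. Of the 5720 primed regions lost with MC_2580, 2953 came from the lowest score quartile and 66 from the highest. A weak peak can drop below the caller's threshold with a small change of signal, and signal was not analysed here.

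Gains went the other way, towards the stronger H3K4me1 peaks, in both sets. H3K4me2 rose from 2.53% of the lowest score quartile to 12.3% of the highest with MC_2580, from 3.74% to 13.2% in the combination, from 3.72% to 9.40% with high-dose RA and from 1.69% to 7.41% with low-dose RA. H3K27ac rose from 12.95% to 30.03% with high-dose RA and from 13.4% to 28.8% in the combination. The slope was flatter with low-dose RA, from 17.9% to 24.4%. MC_2580 went from 1.69% to 5.70%. H3K4me3 spanned 2.11% to 6.97% in the combination and 3.29% to 8.07% with low-dose RA, with MC_2580 (2.30% to 7.22%) and high-dose RA (2.41% to 6.31%) alike. Over the same scores the other peaks without the mark in DMSO rose from 7.22% to 33.9% in H3K4me2 with MC_2580, from 15.9% to 35.55% in H3K27ac with high-dose RA and from 7.76% to 21.8% in H3K4me3 with low-dose RA.

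**Figure D2:**
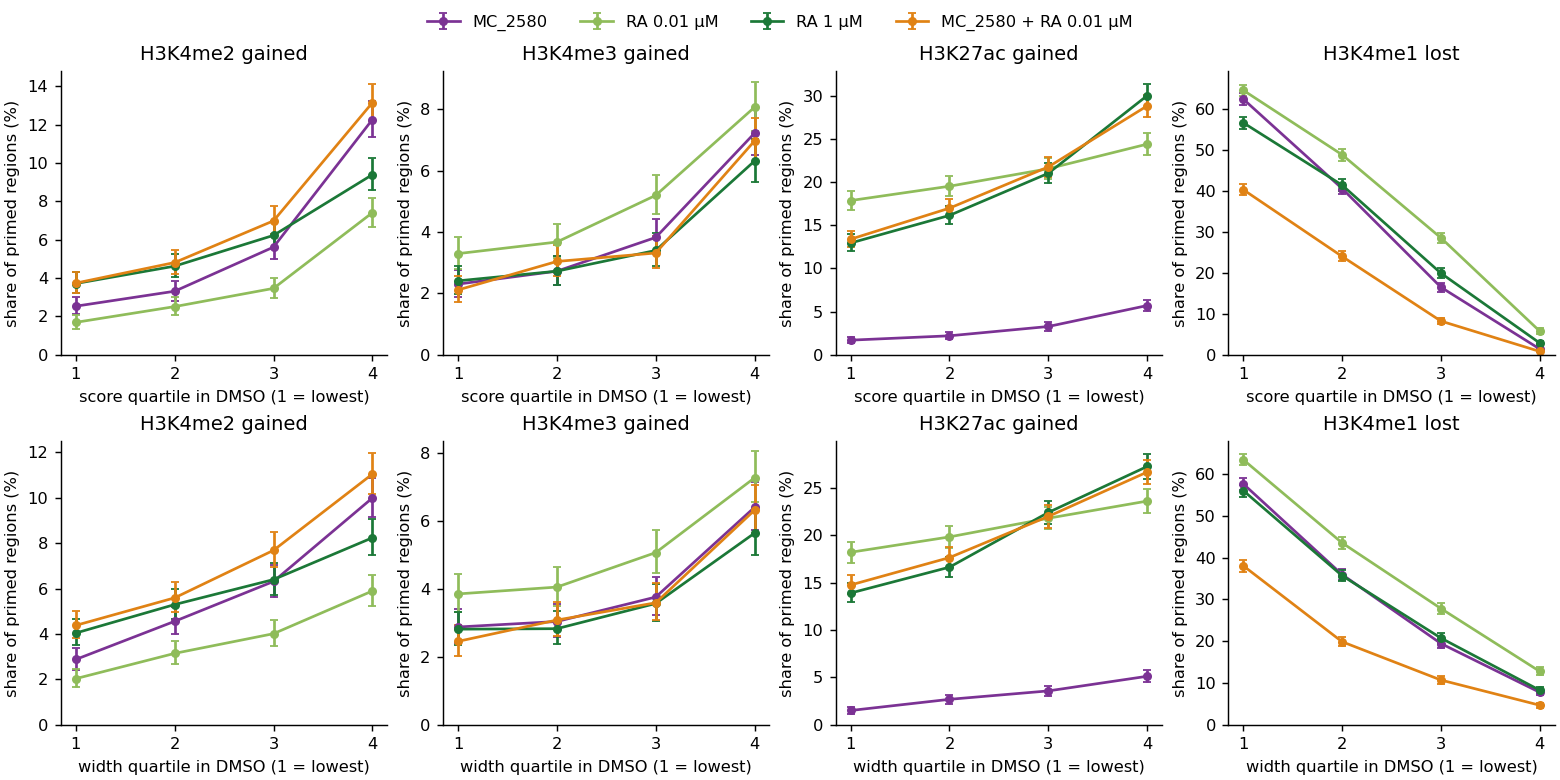
Share of primed regions with each outcome, in percent, by quartile of the H3K4me1 score (top row) and of the H3K4me1 width (bottom row) in DMSO, with 95% exact binomial intervals. Gains rise and losses fall with score and with width in every treatment, and H3K27ac with low-dose RA, from 17.9% to 24.4% over the score quartiles, has the flattest rise among the conditions with RA.

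Width gave the same picture with less contrast. Quartiles ran from 554 to 1396, from 1397 to 1782, from 1783 to 2348 and from 2349 to 17540 bases. Loss of H3K4me1 fell from 57.7% of the narrowest to 7.75% of the widest quartile with MC_2580, and from 38.1% to 4.67% in the combination. H3K27ac rose from 13.9% to 27.2% with high-dose RA and from 18.2% to 23.6% with low-dose RA. H3K4me2 rose from 2.88% to 9.99% with MC_2580 and from 4.38% to 11.04% in the combination. The other H3K4me1 peaks, divided at the same widths, ran the same way. Their loss of H3K4me1 went from 31.2% to 0.591% with MC_2580 and from 15.1% to 0.456% in the combination. Among those without the mark in DMSO, H3K27ac went from 18.8% to 35.1% with high-dose RA and from 37.15% to 42.4% with low-dose RA. H3K4me2 went from 11.2% to 32.3% with MC_2580 and from 12.05% to 27.8% in the combination.

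Width and score were then crossed. Among the widest regions, H3K4me2 with MC_2580 went from 1.23% of 162 regions in the lowest score quartile to 13.0% of 3199 in the highest. Among regions of the lowest score, it was 2.45% of the narrowest and 1.23% of the widest. H3K27ac with high-dose RA spanned 16.7% to 30.8% over score in the widest quartile, and it was 11.7%, 13.6%, 17.2% and 16.7% from the narrowest to the widest regions of the lowest score quartile. Loss of H3K4me1 depended on width as well: with high-dose RA it was 63.5% of the narrowest and 41.4% of the widest regions of the lowest score.

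Within a treatment the marks tended to fall on the same regions. With high-dose RA, H3K27ac was called on 51.3% (48.3 to 54.2%) of the 1135 regions that gained H3K4me2 and on 18.05% (17.5 to 18.6%) of those that did not. The shares were 56.4% and 17.5% in the combination and 59.1% and 19.3% with low-dose RA. With MC_2580 they were 8.54% (6.97 to 10.3%) and 2.88%. Regions with H3K4me2 carried H3K27ac more often than regions without it in every treatment. The difference in percentage points was smallest with MC_2580, where both shares were lowest. Each gain also rose with the H3K4me1 score, and these shares were not compared within score quartiles. They were not computed for the other H3K4me1 peaks either. Read the other way, 15.3% of the 3796 regions acetylated with high-dose RA and 19.97% of the 3836 in the combination had H3K4me2, so that most acetylated regions had none.

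Acetylation without either further methylation mark was the most frequent of the states with a gained mark in the conditions with RA. With H3K4me1 kept, 2702 regions (14.3%) had H3K27ac alone with high-dose RA and 2740 (14.5%) in the combination. The number was 2211 (11.7%) with low-dose RA and 405 (2.14%) with MC_2580. H3K4me2 alone on kept H3K4me1 was the most frequent state with a gained mark with MC_2580, with 801 regions (4.23%), against 413 (2.18%) with high-dose RA. Both marks together were found on 605 regions (3.19%) in the combination, 493 with high-dose RA, 294 with low-dose RA and 73 with MC_2580. All 3 marks with H3K4me1 kept appeared on 154, 74, 84 and 22 regions in this order. The states were counted on primed regions only and not on the other H3K4me1 peaks.

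Regions that gained a mark had mostly kept H3K4me1, as had most primed regions in every treatment. Of the regions that gained H3K27ac, 92.4% kept H3K4me1 with high-dose RA, 95.8% in the combination and 88.5% with MC_2580. Low-dose RA stood apart with 69.6%. There, 1201 regions had H3K27ac and no H3K4me1 peak, against 290 with high-dose RA and 162 in the combination. Among regions that lost H3K4me1, 17.2% (16.3 to 18.1%) carried H3K27ac with low-dose RA and 5.07% (4.52 to 5.67%) with high-dose RA. Regions without gained H3K27ac lost H3K4me1 in 35.8% (high-dose RA), 38.6% (low-dose RA), 21.9% (combination) and 30.8% (MC_2580). Where H3K27ac was gained, the losses were 7.64%, 30.4%, 4.22% and 11.5% in the same order. In the highest score quartile, H3K27ac lay on 24.6% of 4464 kept and 20.96% of 272 lost regions with low-dose RA. With high-dose RA these shares were 30.8% of 4601 and 2.22% of 135, the latter being 3 regions. Counted on kept H3K4me1 alone, gains of H3K27ac were 2747 (22.98% of the kept regions), 3506 (26.5%) and 3674 (23.7%) for low-dose RA, high-dose RA and the combination. Gains on kept and lost H3K4me1 were counted for primed regions only and not for the other H3K4me1 peaks.

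That low-dose H3K27ac library also differed outside the primed regions. Of its 30048 peaks without a DMSO counterpart, 74.5% lay off every H3K4me1 peak of DMSO and 11.6% lay on primed regions. With high-dose RA, 49.0% of 12910 such peaks lay off H3K4me1 and 26.6% on primed regions, and in the combination 51.7% and 22.9% of 15266. With MC_2580, 19.5% of 2738 fell on primed regions. The part of this library's wider calling in the gains at primed regions was not tested.

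**Figure D3:**
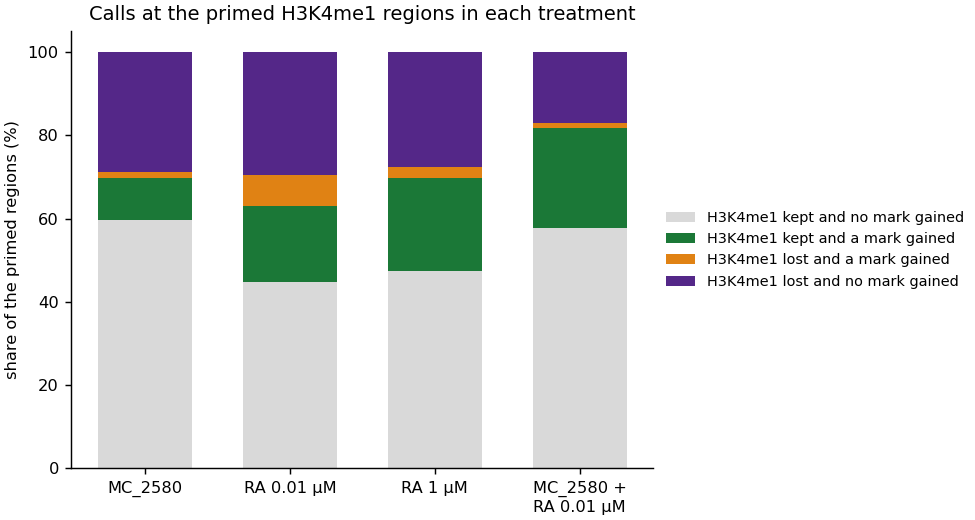
Primed H3K4me1 regions of DMSO divided by what was called there in each treatment, in percent of the 18944 regions; a mark is any of H3K4me2, H3K4me3 and H3K27ac. Regions with kept H3K4me1 and a new mark were 10.2% with MC_2580, 18.2% with low-dose RA, 22.3% with high-dose RA and 23.9% in the combination, and regions with a new mark but no H3K4me1 were most frequent with low-dose RA (7.48%).

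Over the 4 treatments, 8201 regions (43.3%) gained at least 1 mark in at least 1 of them, with a background of 49.7% over H3K4me1 peaks that lacked at least 1 of the 3 marks in DMSO. H3K4me1 was lost in at least 1 treatment at 9812 (51.8%, background 26.2%). Another 4079 (21.5%, 20.9 to 22.1%) showed none of the 16 outcomes and stayed without the 3 other marks in all 5 conditions. The background for no gain and no loss was 47.6% over the whole H3K4me1 list, which includes peaks that carried all 3 marks in DMSO and could gain none. The 4079 had a median score of 176.86 and a median width of 2132 bases, above the 110.02 and 1783 of all primed regions. Regions that lost H3K4me1 at least once had 77.67 and 1501.

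The gained peaks differed in shape and strength between marks. Gained H3K4me2 peaks were narrow patches with a median width of 423.5 bases (MC_2580) to 552 bases (combination), covering a median of 20.1 to 26.7% of the H3K4me1 region, and 46.9 to 58.4% of these regions had H3K4me2 across their centre. H3K27ac peaks were broad, 2120 to 2620 bases, and covered 71.5 to 86.7% of the region. H3K4me3 peaks measured 1510 to 1768 bases and covered 57.1 to 64.85%. H3K4me2 was narrowest in the whole treated lists too, with median widths of 780 to 1001 bases. The medians were 2464 to 2883 bases in the H3K27ac lists and 2446 to 2633 in the H3K4me3 lists. Gained peaks were narrower at the median than their list, except H3K27ac with low-dose RA (2620 against 2464 bases).

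The treated H3K4me2 peak had no H3K4me2 peak of DMSO beneath it at 99.3 to 100% of the gaining regions. Position and width left little room for another result. Only 309 of the 18944 regions lay within 1 kb of H3K4me2 of DMSO, and the gained peaks had median widths of 423.5 to 552 bases. Spread from a neighbour was not tested. The share without a DMSO peak of the mark beneath was 84.5 to 89.2% for H3K27ac and 81.3 to 88.2% for H3K4me3. These shares were not computed for the other H3K4me1 peaks. At the remaining regions, such as 410 for H3K27ac with high-dose RA and 134 for H3K4me3 with MC_2580, the treated peak on the primed region also overlapped a DMSO peak of the mark.

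Gained H3K4me2 and H3K4me3 peaks were weak in their own lists. Their best peak on the region stood at the 16.3 to 22.9 percentile of list scores for H3K4me2 and at the 19.2 to 22.8 percentile for H3K4me3, and for H3K27ac with MC_2580 at the 18.1. H3K27ac in the conditions with RA ranked higher, at the 37.6 percentile with high-dose RA, 39.1 in the combination and 47.2 with low-dose RA. New H3K27ac peaks with high-dose RA had a median score of 117.30 on primed regions and 84.97 elsewhere. New H3K4me2 peaks had 74.27 on primed regions and 78.32 elsewhere with MC_2580, 73.79 and 72.54 with low-dose RA, 88.78 and 84.50 with high-dose RA, and 84.92 and 83.97 in the combination. In the same order, new H3K4me3 peaks had 85.40 and 89.83, 90.55 and 88.84, 82.56 and 79.82, and 77.25 and 77.82. New H3K27ac peaks had 71.12 and 70.27 with MC_2580, 116.64 and 91.45 with low-dose RA, and 108.34 and 84.36 in the combination. New H3K4me2 and H3K4me3 peaks were thus about as weak elsewhere.

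Since the rule allows gains only, the count was also made with the arms exchanged, on the 3 histone marks. In DMSO, 21528 H3K4me1 peaks carried none of them, and 20.2% of these had H3K27ac with high-dose RA. Of the 20370 such peaks in high-dose RA, 11.02% had H3K27ac in DMSO, a ratio of 1.83. The ratio was 2.28 in the combination (22.1% and 9.69%) and 1.52 with low-dose RA (20.8% and 13.7%). With MC_2580 it was 0.280, with 4.36% forward and 15.6% in reverse, beside H3K27ac lists of 24552 peaks with the inhibitor and 32789 in DMSO.

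For H3K4me2 the ratio was 2.90 with MC_2580 (8.53% and 2.94%) and 3.59 in the combination (9.20% and 2.56%), against 1.58 with high-dose RA (6.52% and 4.13%) and 0.906 with low-dose RA (4.16% and 4.59%). The H3K4me2 lists held 50736 peaks with MC_2580, 45463 in the combination, 46010 with high-dose RA, 39302 with low-dose RA and 40598 in DMSO, and these ratios were not computed at equal length. H3K4me3 had ratios of 6.22 to 35.2, with the reverse share between 0.148% and 0.614%. The DMSO list of H3K4me3 was the shortest of its mark, with 21688 peaks against 26271 to 29872. For H3K4me1 itself, 27.4% of the DMSO set had no H3K4me1 with MC_2580 and 18.8% of the MC_2580 set had none in DMSO. In the combination these shares were 16.6% and 39.2%.

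**Figure D4:**
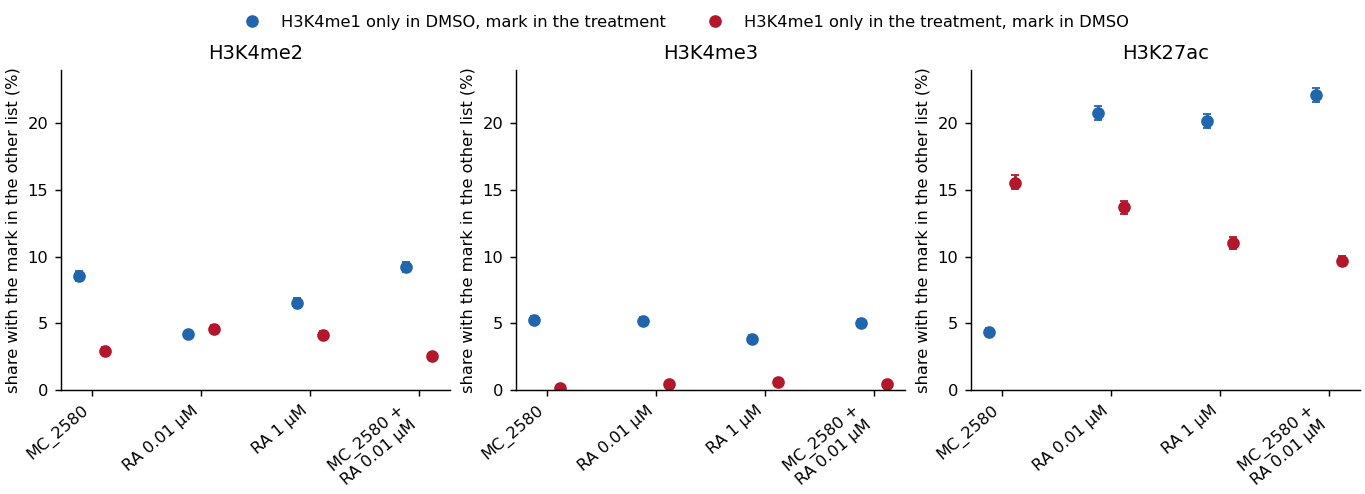
Percent of regions carrying H3K4me1 and none of the 3 other histone marks in one list that have the named mark in the other list, for DMSO regions followed into each treatment (blue) and regions of each treatment followed back into DMSO (red), with 95% exact binomial intervals. Blue lies above red for H3K27ac in the conditions with RA and below it with MC_2580, and H3K4me2 shows the widest gap in the combination (9.20% and 2.56%).

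Gains differed with the distance to marked chromatin in DMSO. They were counted by distance for primed regions only and not for the other H3K4me1 peaks. Treated peaks that also overlapped a DMSO peak of the mark are included and were not counted apart by distance. H3K27ac with high-dose RA was gained by 37.6% of the 1010 regions within 1 kb of an H3K27ac peak of DMSO and by 22.7%, 21.4%, 16.8% and 12.1% of those at 1 to 5, 5 to 20, 20 to 100 and over 100 kb. With low-dose RA the shares went from 45.5% to 8.81%, in the combination from 38.6% to 10.6% and with MC_2580 from 9.41% to 1.68%. The rate of H3K4me3 gain was highest beside existing H3K4me3, although most gaining regions lay farther away. With MC_2580, 24.5% of the 470 regions within 1 kb (115 of the 761 gains) gained it and 5.64% of those at 1 to 5 kb, against 2.71% at 5 to 20 kb and 4.57% at 100 kb or more.

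Distance to the factors was followed too, again for primed regions only. Within 1 kb of an LSD1 peak of DMSO lay 133 regions, of which 12.8% (7.63 to 19.7%) gained H3K27ac with MC_2580, against 1.92% of the 5925 regions at 100 kb or more. For the combination the shares were 39.1% and 12.8%, and for high-dose RA 30.8% and 14.6%. H3K4me2 with MC_2580 differed less with distance, from 8.27% of the regions nearest to LSD1 to 5.49% of the farthest. By distance to GFI1 it was 7.23% of 332 regions within 1 kb and 6.20% at 100 kb or more. Loss of H3K4me1 was lower near GFI1 in every treatment. It was 19.3% within 1 kb and 35.7% at 100 kb or more with MC_2580, 33.4% and 40.45% with low-dose RA, 24.7% and 34.2% with high-dose RA, and 9.94% and 21.9% in the combination. The near regions had a median score of 115.58 and a median width of 1897 bases, against 103.96 and 1627.5. Near H3K4me3 of DMSO the direction differed by treatment. Loss within 1 kb and at 100 kb or more was 26.4% and 34.7% with MC_2580, and 49.8% and 41.0% with low-dose RA. It was 40% and 34.4% with high-dose RA, and 26.0% and 21.5% in the combination. By distance to H3K4me2 it was 23.6% and 35.9%, 47.6% and 39.0%, 40.8% and 34.3%, and 23.3% and 21.5% in the same order. How far LSD1 and the other nearby marks each go with these shares was not tested.

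**Figure D5:**
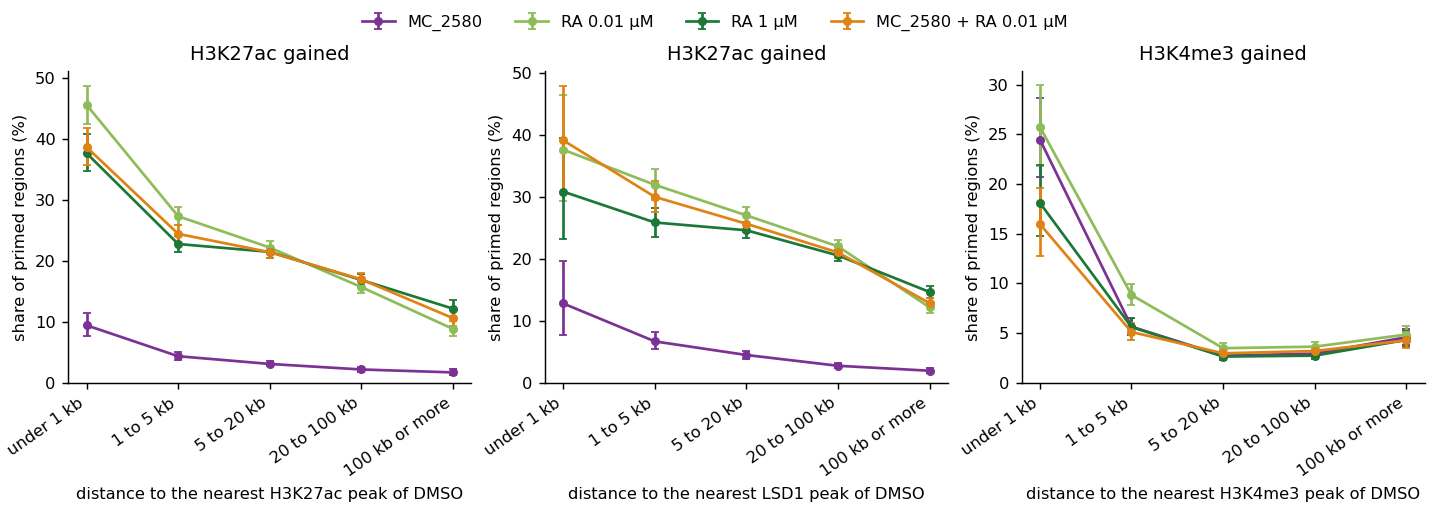
Share of primed regions, in percent with 95% exact binomial intervals, that gained H3K27ac by distance to the nearest H3K27ac (left) or LSD1 peak (centre) of DMSO, and that gained H3K4me3 by distance to the nearest H3K4me3 peak of DMSO (right). Every curve is highest in the nearest class, most clearly for H3K4me3, where 24.5% of the regions within 1 kb and 5.64% of those at 1 to 5 kb gained it with MC_2580.

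Single regions show the range of these outcomes. They were taken by rule as the region whose treated peak scored highest in a mark and treatment among peaks without a DMSO counterpart. A region on chromosome 11 from 120279083 to 120280998 on hg18, 1916 bases long and weakly called in DMSO with a score of 63.37, carried the highest-scoring H3K4me2 gain of both low-dose RA (763.92) and the combination (3004.15). H3K4me2, H3K4me3 and H3K27ac were all called there in the 3 conditions with RA and none of them with MC_2580. H3K27ac reached 3100 in each of the 3, and H3K4me3 scored 384.76, 133.26 and 482.83 with low-dose RA, high-dose RA and the combination. H3K4me1 was called in all 5 lists.

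A region on chromosome 17 from 72004733 to 72005952 had a like pattern. Its H3K4me1 score in DMSO was 79.85, it had no H3K4me1 peak with MC_2580, and the 3 conditions with RA carried all 4 marks. H3K4me2 scored 1624.49 with high-dose RA, the highest new peak on a primed region in that list, and 415.65 with low-dose RA. In the combination it scored 3100, in a peak that also covered an H3K4me2 peak of DMSO. H3K4me3 and H3K27ac reached 3100 in each of the 3 conditions with RA. With low-dose RA and in the combination, this H3K4me3 peak also overlapped an H3K4me3 peak of DMSO. The highest new H3K4me3 peaks on primed regions scored 2633.82 and 1075.21 in these lists. The strongest H3K4me2 gain with MC_2580 was of another kind: on chromosome 11 from 33974286 to 33976452, H3K4me2 was called in all 4 treatments, with scores of 515.04 (MC_2580), 190.12 and 624.98 (low- and high-dose RA) and 634.79 (combination). No H3K27ac peak was called there in any condition, H3K4me1 was absent from both lists of RA alone, and H3K4me3 was called weakly with low-dose RA (58.60) and in the combination (65.25).

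Close regions on chromosome 10 led the H3K4me3 gains of the conditions with RA. The one from 32295498 to 32296847 had H3K4me3 at 2633.82 with low-dose RA, 3100 with high-dose RA and 1075.21 in the combination, and H3K27ac with high-dose RA (3100) and in the combination (622.01) but not with low-dose RA. The other, from 32280407 to 32282398, was 1 of 3 tied at the top with high-dose RA and had H3K4me3 in all 4 treatments, at 103.36 with MC_2580, and H3K27ac with high-dose RA (1600.07) and in the combination (81.67). With MC_2580 the leading H3K4me3 gain lay on chromosome 14 from 51441831 to 51443112, where H3K4me3 was called in all 4 treatments (338.99 to 575.40) and H3K27ac in none.

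The leading H3K27ac gains each had a different set of conditions. On chromosome 5 from 14981952 to 14983699 the primed region lay at one end of a 16190-base H3K27ac peak of MC_2580 (2840.50), which was also called in the combination (1929.89) and in neither RA dose alone. Its H3K4me1 score was 63.88 in DMSO, 2524.51 with MC_2580 and 3100 in the combination, with no H3K4me1 peak in either RA dose. On chromosome 2 from 84912738 to 84914924, H3K27ac was called in the 3 conditions with RA (3020.41 to 3214.80), with no H3K4me2 or H3K4me3 peak anywhere. High-dose RA alone had H3K27ac on chromosome 6 from 6908089 to 6912420 (3146.12), where H3K4me1 was called in all 5 lists. Another region of chromosome 6, from 149593950 to 149599222, had H3K27ac at 3158.22 in the combination, 101.10 with high-dose RA and none in the other 3 conditions. Scores pile up at 3100, and the rule took the highest value also above it.

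Lost regions were named by the highest H3K4me1 score in DMSO, so they are not typical of the lost regions, which were mostly weak. With MC_2580 the highest-scoring lost region lay on chromosome 5 from 139652615 to 139659490 (score 406.58 in DMSO) and was called in the other 3 treatments at 67.72 to 252.92. Low-dose RA lost a 7572-base region on chromosome 1 from 89891774 to 89899345 (603.53). It was called in the other treatments, at 863.01 with MC_2580, 877.74 in the combination and 119.27 with high-dose RA. High-dose RA lost chromosome 10 from 24245912 to 24249122 (424.59), which low-dose RA lacked too. On chromosome 15 from 53265537 to 53269467 (363.72) the combination, MC_2580 and high-dose RA had no H3K4me1 peak. H3K4me3 was called there at 60.55 with MC_2580, 3100 with low-dose RA and 113.20 with high-dose RA. The H3K4me3 peak of low-dose RA also overlapped an H3K4me3 peak of DMSO.

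Stable primed regions also had strong examples. The highest-scoring one without any change, on chromosome 21 from 37702813 to 37710874, was 8062 bases wide, scored 1452.05 in DMSO and 1048.59 to 2420.61 in the treatments, and had no other mark in any condition. The widest primed region, 17540 bases on chromosome 9 from 79800923 to 79818462, kept H3K4me1 throughout. It gained weak H3K27ac with high-dose RA (125.50) and weak H3K4me3 in the combination (80.85).

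Regions that kept H3K4me1 did not all keep its extent. The widest treated peak on the region had a median of 1.06 times its DMSO width with MC_2580, 0.841 and 0.871 times with low- and high-dose RA, and 0.960 times in the combination. The other H3K4me1 peaks moved likewise, at 1.03, 0.768, 0.843 and 0.941 times. Of the kept primed regions, 11.2% lay in an H3K4me1 peak that joined several DMSO peaks with MC_2580, against 5.41%, 6.32% and 7.72% in the other treatments in the same order. In the other H3K4me1 peaks these shares were higher, at 16.4% with MC_2580, 6.46%, 9.18% and 12.4%.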

How the data were processed

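NB4 cells were profiled by ChIP-seq in 25 samples, of which 23 had a peak list and 2 inputs entered no comparison. Per the submitters' processing notes, the authors used MACS 1.4.1, Bowtie 1.0.1, FastQC 0.10.0 and 0.11.5, CASAVA 1.8, bcl2fastq 2 and hg18, with no role or order named. Each deposited list belongs to 1 library and gives positions and a score per peak. The LSD1 lists start at a higher score than the others, and no source states why. A start below 0 in 8 peaks was set to 0. Gene names and sequences were not used here, since the tables at hand are on another build.

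Overlaps were computed with Python 3.11.15 and NumPy 2.4.6, exact binomial (Clopper-Pearson) intervals with SciPy 1.17.1 and figures with Matplotlib 3.10.9. The code was tested on simulated lists. Differences have 95% normal intervals. Quartiles were cut over the primed regions. In the weighted comparison, classes with fewer than 20 peaks of either set were left out. No p-value was computed, with 1 library per group. The members, outcomes and lists were chosen with earlier results of these data known. Regions were named by rule: the highest-scoring gained and lost member per mark and treatment, the widest member, the highest-scoring member without change and the 100 kb windows with the most members. The alternatives tried were an overlap of 200 bases, scores of at least 100 (in all lists or the treated lists), treated lists of equal length, a distance of 1 kb from excluded peaks, autosomes only and a rule without LSD1 and GFI1.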

Additional observations from a re-analysis of the deposited data

How the results depend on the processing

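Counts of regions were compared with those under each alternative and taken as moved when they differed by more than 1.5 times. An overlap of 200 bases, a distance of 1 kb to excluded peaks and autosomes only moved none of the 17 counts, and leaving LSD1 and GFI1 out of the rule gave 21528 members. A minimum score of 100 in every list left 14650 members and moved 4 counts: H3K4me2 with low-dose RA to 457, H3K4me3 in the combination to 440, H3K27ac with MC_2580 to 385 and lost H3K4me1 in the combination to 1889. Applied to the treated lists alone, which then hold fewer peaks, it moved all 16 outcomes. In the order MC_2580, low-dose RA, high-dose RA and combination, gains of H3K4me2 were then 291, 204, 504 and 556, of H3K4me3 370, 512, 323 and 281 and of H3K27ac 190, 2557, 2398 and 2318, and losses of H3K4me1 were 10084, 11212, 9475 and 6273. Treated lists of equal length (39302 peaks for H3K4me2, 26271 for H3K4me3, 24552 for H3K27ac and 54181 for H3K4me1) moved 6 counts. H3K4me2 became 383 with MC_2580 and 876 in the combination, H3K27ac 1513, 1943 and 1851 with low-dose RA, high-dose RA and the combination, and lost H3K4me1 in the combination 7399. The low H3K27ac of MC_2580, at 609 with its own list whole, stayed below the conditions with RA at equal length, whereas the order of the treatments in H3K4me2, in H3K4me3, in lost H3K4me1 and, among the conditions with RA, in H3K27ac did not hold. With 1 library per group, no library could be left out, and unknown depth limits every count of weak peaks.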

Other observations

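Primed regions were unevenly spread over chromosomes. They made up 17.98% of the H3K4me1 peaks of chromosome 19 and 40.2% of those of chromosome 8, the extremes among chromosomes with at least 100 members. Gains also differed between chromosomes. With low-dose RA, H3K27ac was gained by 41.9% of the 475 primed regions of chromosome 19 and by 10.4% of the 788 of chromosome 4. For high-dose RA the share ran from 15.9% on chromosome 4 to 27.5% on chromosome 20, and the combination from 11.55% on chromosome 4 to 34.3% on chromosome 19. H3K4me2 was gained most on chromosome 19 in all 4 treatments, by 14.3% of its primed regions with MC_2580 and 19.8% in the combination, against medians over chromosomes of 6.06% and 6.997%. Chromosome 19 also had the highest loss of H3K4me1 with low-dose RA (47.8%) and high-dose RA (40%). These gains and losses were counted by chromosome for primed regions only. They are not set against the other H3K4me1 peaks of each chromosome.

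Of the 100 kb windows with a primed region, 5499 held 1. The densest 100 kb windows held 13 members each. On chromosome 2 from 32000001 to 32100000 there were 13 members among 15 H3K4me1 peaks, and in each condition with RA 1 of them gained H3K27ac. On chromosome 14 from 102100001 to 102200000, with 13 of 17 peaks, 5 members gained H3K27ac with low-dose RA, 4 with high-dose RA and 4 in the combination, and none with MC_2580.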
